A study of Mus musculus with 21 samples.

Results

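The nuclear genes of the mitochondrial respiratory chain were followed through RNA sequencing of mouse embryonic stem (ES) cells with and without Dot1l. A gene was taken when its symbol began with Nduf, Sdha, Sdhb, Sdhc, Sdhd, Uqcr, Cox4i, Cox5, Cox6, Cox7, Cox8 or Atp5 and did not contain -ps. This gave 96 of the 53796 genes in each expression table, and 8 symbols with -ps were left out. By known role they comprise 36 subunits of complex I, 4 of complex II, 8 of complex III, 11 of complex IV, 9 tissue-restricted or related copies of complex IV subunits (called paralogues below), 15 subunits of complex V and 13 assembly or coupling factors. Ndufa4 is counted with complex IV, where the protein is known to sit, despite its name. All 96 overlapped a RefSeq gene of GRCm38.p6 at the deposited locus.

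The respiratory chain sits in the inner mitochondrial membrane. Complex I (NADH dehydrogenase) and complex II (succinate dehydrogenase) pass electrons to coenzyme Q, complex III hands them to cytochrome c, and complex IV (cytochrome c oxidase) gives them to oxygen, while complex V (ATP synthase) uses the proton gradient to make ATP. Mitochondrial DNA encodes a few core subunits of complexes I, III, IV and V, and the nucleus encodes all the others, including the whole of complex II. ES cells are known to rely strongly on glycolysis, and the use of respiration changes as they leave pluripotency.

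The tables hold 3 libraries of ES cells with the Cdk1as/as genotype, an analog-sensitive form of the kinase Cdk1, and 3 control and 3 Dot1l KO libraries in each of 2 conditions, all of strain V6.5. Control libraries carry a control sgRNA and a WT genotype in the labels. Dot1l is the enzyme that methylates lysine 79 of histone H3. In the first condition the cells were in SL medium, which contains serum and leukemia inhibitory factor (LIF, 100 U/ml), with a feeder layer of inactivated mouse embryonic fibroblasts. In the second they were on gelatin in serum-free N2B27 medium, and after 2 days received 50 ng/ml Wnt3a with 10 ng/ml activin A, which drives them toward primitive streak fates, for 24 h (called Wnt/activin below). Medium, feeders and factors thus differ together between the conditions. Whether the KO is clonal or pooled, and whether replicates are separate cultures, is not in the labels. All p-values therefore rest on library-to-library spread, which could be technical.

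Values are FPKM, which scale fragments by transcript length and library total, and the sequencing depth is unknown. Each table was scaled on its own, so levels are set side by side across tables with no test. Transcript of the targeted gene, Dot1l, stood at 21.2, 20.6 and 24.6 FPKM in LIF controls and 11.2, 8.90 and 10.8 FPKM in the KO, and at 18.5, 17.7 and 19.1 against 13.5, 12.9 and 14.7 FPKM with Wnt/activin. It fell in both tables (log2 fold change -1.04, limma adjusted p = 0.0178, and -0.40, adjusted p = 0.00462), and transcript remained in every KO library. With Wnt/activin the Dot1l value lay within the quartiles of all genes tested (-0.45 to 0.32). Total FPKM was also lower in those KO libraries, at 759255 to 792381 against 1087970 to 1144370 in controls. The part of total FPKM in the Dot1l fall was not tested. The 8 ES cell markers (Pou5f1, Sox2, Nanog and others) were present in all groups. Primitive streak markers summed to 4.85 to 5.17 FPKM in the LIF controls and 957 to 1055 FPKM in the controls with Wnt/activin. In KO replicate 3 in LIF the short RNA Mir6236 held 28.6% of summed FPKM, while its share was 5.25% to 8.31% among the other 5.

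In control cells the ATP synthase beta subunit gene Atp5b was the highest of the 96, at 2497, 2506 and 2867 FPKM in LIF and 3074, 2929 and 2983 FPKM with Wnt/activin. With Wnt/activin it was followed by Cox6b1 (mean 1951 FPKM), Cox4i1 (1387), Ndufa7 (1336), Uqcrq (1184), Cox7b (1105) and Cox8a (1035). The libraries of Cox4i1 (1339, 1429 and 1394 FPKM) and Ndufa7 (1338, 1303 and 1366 FPKM) overlapped, so the order of these neighbours is not resolved. Median levels in these controls were 643 FPKM for complex IV subunits, 555 for complex V, 453 for complex III, 238 for complex I, 172 for complex II and 25.2 for assembly factors. The same order of complexes IV, V, III and I held in LIF, with medians of 512, 352, 294 and 131 FPKM, and there complex II (139) stood between complexes III and I. Within complex I the range was wide, from 27.8 FPKM for Ndufb4 to 1336 FPKM for Ndufa7. Such levels depend on the transcript models used for length. In bulk RNA, fewer cells of a type and less RNA per cell cannot be told apart.

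Summed over the 96 genes, the controls with Wnt/activin had 35124 to 35919 FPKM, the LIF controls 22679 to 23631 FPKM and the ES cells 14186 to 14543 FPKM. Of 91 members with at least 1 FPKM in both tables, 81 were at a higher level in the Wnt/activin controls than in the LIF controls, with a median ratio of 1.56 (0.979 over 11482 genes). Against the LIF controls, 12 of 91 were at a higher level in the ES cells, with a median ratio of 0.65 (0.875 over 12074 genes). Cox4i1 was listed at 0 in all 3 ES cell libraries, as were all 210 genes that the table places at the same 4.44 Mb locus, 60 of which had 1 FPKM or more in the LIF controls. It is therefore only listed at 0 there, and its level in ES cells is not known from this table.

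The promoters shown are from members of each complex that were called lower with Wnt/activin below. Motifs for factors known to act on respiratory genes can be read in them. These promoters were chosen for an exact match after the values were seen. Sequences are the 120 bases before the RefSeq transcription start in GRCm38.p6, 5′ to 3′ on the gene's strand. Capitals mark the full palindromic site of NRF1 (nuclear respiratory factor 1) or only its core GCATGCGC, or CCGGAAG, the site of ETS factors such as GABPA, or CTTCCGG, the same ETS site on the other strand.
Ndufa11 (complex I, chr17:56717642-56717761, plus strand): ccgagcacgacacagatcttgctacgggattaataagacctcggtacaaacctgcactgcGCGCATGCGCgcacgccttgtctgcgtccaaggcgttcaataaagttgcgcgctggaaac
Ndufb7 (complex I, chr8:83566638-83566757, plus strand): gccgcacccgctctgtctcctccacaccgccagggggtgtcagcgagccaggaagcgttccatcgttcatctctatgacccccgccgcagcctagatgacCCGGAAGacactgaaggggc
Sdhb (complex II, chr4:140961151-140961270, plus strand): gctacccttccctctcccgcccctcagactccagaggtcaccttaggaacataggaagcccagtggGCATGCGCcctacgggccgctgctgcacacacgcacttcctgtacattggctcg
Uqcr11 (complex III, chr10:80406822-80406941, minus strand): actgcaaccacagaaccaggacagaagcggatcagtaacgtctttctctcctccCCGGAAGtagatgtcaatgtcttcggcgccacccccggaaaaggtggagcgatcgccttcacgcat
Cox6b1 (complex IV, chr7:30626115-30626234, minus strand): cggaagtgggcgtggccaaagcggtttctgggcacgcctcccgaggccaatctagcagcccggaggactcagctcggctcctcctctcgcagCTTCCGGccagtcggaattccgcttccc
Atp5k (complex V, chr5:108434400-108434519, minus strand): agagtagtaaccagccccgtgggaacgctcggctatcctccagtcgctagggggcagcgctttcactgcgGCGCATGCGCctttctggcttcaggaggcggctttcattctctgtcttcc
The NRF1 site began at position -60 in Ndufa11, -50 in Atp5k and -54 in Sdhb. The ETS site began at -20 in Ndufb7, -28 in Cox6b1 and -66 in Uqcr11.

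Promoter windows of 300 bases, from 250 before to 50 after the start, were given for 80 of the 96 genes (85 windows) and were searched on both strands. The full NRF1 site was in 8.24% of the members' windows and 0.971% of all 32851 windows, and its core in 14.1% and 2.71%. The ETS site was in 24.7% against 8.86%. The YY1 core ATGGCGG was in 16.5% against 4.05%, and the longer YY1 motif, which contains that core, in 5.88% against 0.633%. The site of estrogen-related receptors, TCAAGGTCA, was in 2.35% against 0.423%. At least 1 of the NRF1 core, ETS site and YY1 core was in 45.9% of the members' windows, against 14.1% of all windows. Complex I subunits were 8 of the 13 members with the YY1 core and 32 of the 80 members searched. The 32851 windows belong to 27025 genes, whether or not expressed in these cells, and were not matched to the members in level or base composition. A match describes these letters only, and shares were not tested.

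The comparison of KO with control with Wnt/activin asked how loss of Dot1l alters these genes while cells differentiate. Subunit genes of all 5 complexes fell in the KO. Of the 91 members that passed the filter of a mean of 1 FPKM, 82 fell, 1 rose and 8 did not pass the test (limma on log2(FPKM + 1), adjusted p under 0.05 over all genes). Over all 12770 genes tested 29.5% were called lower and 19.6% higher. The members' median log2 fold change was -0.72, beside -0.08 over all genes. After quantile normalization of the libraries 54 members fell and 9 rose, with a median of -0.30 (all genes 22.6% lower and 21.5% higher). When the trend in gene span and level was taken out of each library, 46 fell and 9 rose, with a median of -0.22 (all genes 20.6% lower and 19.7% higher). The members below the filter were Cox4i2, Cox6a2, Cox7b2, Cox8b and Cox8c, which are restricted to particular tissues or conditions. The authors' deposited table called 78 of 91 members lower and 0 higher at a q under 0.05, with 25.3% of all genes lower and 19.8% higher. Members called lower by limma but not by the authors' comparison included Ndufs1 (q = 0.552), Atp5a1 (0.116), Atp5c1 (0.100) and Uqcrfs1 (0.0967). Ndufb4 and Ndufaf4 were called lower only in the authors' comparison.

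**Figure D1:**
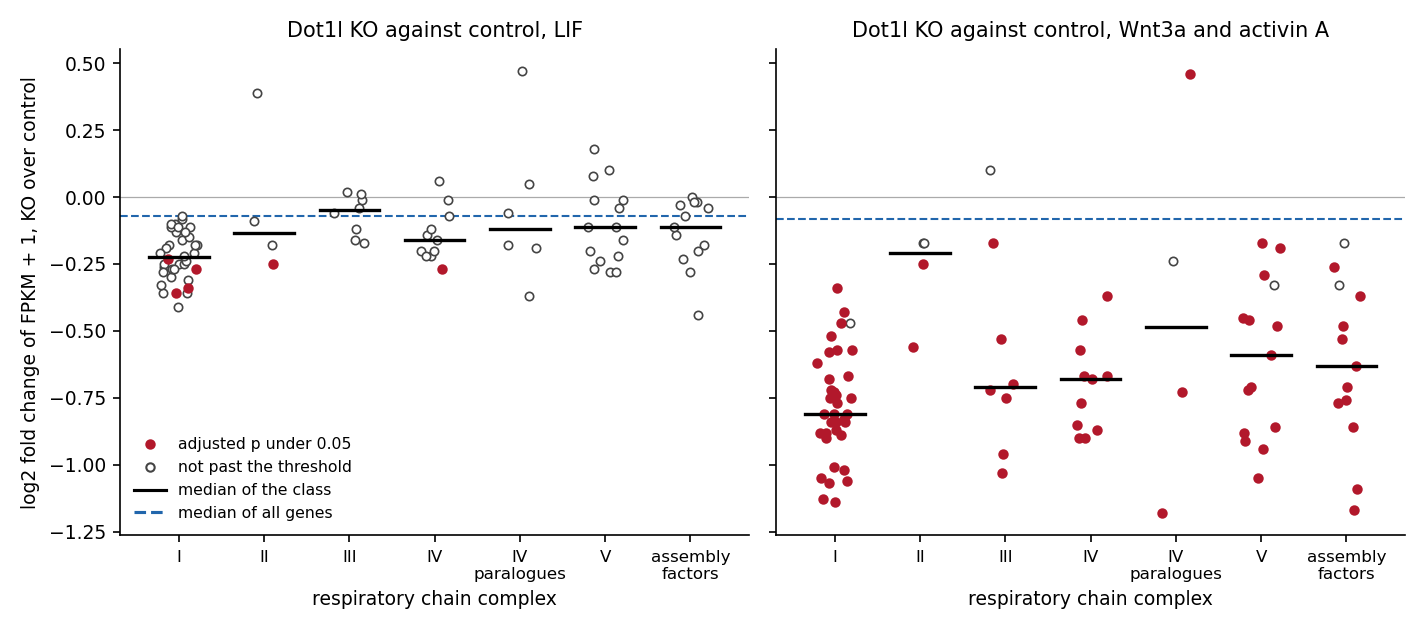
Log2 fold change of FPKM + 1 (vertical axis) of each member, KO over control, by complex (horizontal axis), in LIF (left) and with Wnt/activin (right). Points are genes, filled where the adjusted p is under 0.05, black bars are class medians and the dashed line is the median of all genes (-0.07 and -0.08). On the right, 82 of 91 points are filled and below 0, with the complex I median at -0.81 and the complex II median at -0.21.

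The lowest median of the 5 complexes was that of complex I, -0.81, and 35 of its 36 subunits fell. The 7 core subunits, which hold the cofactors that carry electrons, all fell with a median of -0.58, and 28 of 29 accessory subunits fell with a median of -0.83. Ndufb7, an accessory subunit of the membrane arm, was at 355, 353 and 365 FPKM in controls and 164, 172 and 175 FPKM in the KO. Every KO library was thus well below every control (log2 fold change -1.07, SE 0.04, limma adjusted p = 5.45e-05). Ndufa7, the complex I subunit with the highest level, was at 1338, 1303 and 1366 FPKM in controls and 731, 742 and 761 FPKM in the KO, again without overlap (-0.84, SE 0.03, limma adjusted p = 5.83e-05). Other accessory subunits with large falls were Ndufa2 (-1.14), Ndufa13 (-1.13), Ndufs6 (-1.06) and Ndufa3 (-1.05). Among core subunits, Ndufv1, which binds NADH, fell from 178 to 101 FPKM (-0.81), while Ndufs1, the largest iron-sulfur subunit, fell from 87.1 to 68.6 FPKM (-0.34). The authors' deposited comparison did not call Ndufs1. For Ndufb4 the groups did not overlap, at 27.5, 28.3 and 27.7 against 26.7, 16.5 and 17.7 FPKM, but the test was not passed (adjusted p = 0.068).

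Complex II had the median closest to 0, at -0.21, with 2 of 4 subunits lower. Sdhb, the iron-sulfur subunit, was at 152, 165 and 163 FPKM in controls and 102, 108 and 113 FPKM in the KO (-0.56, SE 0.06, limma adjusted p = 0.000542). Sdhd, a membrane anchor, fell by 0.25 on the log2 scale. Sdha, the flavoprotein that oxidises succinate, was at 133, 147 and 170.4 FPKM in controls and 139, 173 and 97.9 FPKM in the KO. Its groups overlapped widely, and the other anchor gene, Sdhc, was at 227 against 201 FPKM (adjusted p = 0.112). Whether complex II differed from complex I was not tested.

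In complex III 7 of 8 subunits fell, with a median of -0.71. Uqcrq, a small subunit, was at 1222, 1131 and 1199 FPKM in controls and 544, 583 and 607 FPKM in the KO (-1.03, SE 0.05, limma adjusted p = 7.85e-05). Uqcrc1, a core protein of the matrix side, fell from 251 to 156 FPKM (-0.70). Its partner Uqcrc2 was at 119, 125 and 129 FPKM in controls and 129, 128 and 145 FPKM in the KO, and was not called (0.10, adjusted p = 0.235). Uqcrfs1, the Rieske iron-sulfur protein, fell by only 0.17 on the log2 scale, from 118 to 104 FPKM. The members of this complex thus ranged from a small positive to a large negative difference.

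All 11 complex IV subunits fell, with a median of -0.68 and a range of -0.37 to -0.90. Cox4i1, the main form of subunit 4, was at 1339, 1429 and 1394 FPKM in controls and 719.9, 749.8 and 801 FPKM in the KO (-0.87, SE 0.05, limma adjusted p = 9.61e-05). Cox6b1, a subunit on the intermembrane side, fell from 1951 to 1145 FPKM (-0.77), and Cox5a fell from 390.2 to 245 FPKM (-0.67). Ndufa4 had the smallest fall, from 589 to 456 FPKM.

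In complex V 14 of 15 subunits fell, with a median of -0.59. The F1 head and the membrane Fo part did not form separate groups: 5 of 5 F1 subunits fell (median -0.72) and 9 of 10 Fo or stalk subunits fell (median -0.54). Atp5b fell to 1661, 1923 and 1871 FPKM in the KO (-0.72, SE 0.06, limma adjusted p = 0.000293). Its alpha partner Atp5a1 was at 562, 575 and 529 FPKM in controls and 484, 499 and 479 FPKM in the KO, a fall of 0.19 on the log2 scale (limma adjusted p = 0.0134). Atp5c1, the gamma subunit of the rotor, fell by 0.17. Atp5k, a small Fo subunit, was at 859, 848 and 797 FPKM in controls and 387, 368 and 461 FPKM in the KO (-1.05, SE 0.09, limma adjusted p = 0.000307). Atp5g1, Atp5g2 and Atp5g3, which encode the same mature protein of the c ring, fell by 0.46, 0.59 and 0.48. Atp5l was at 13.9, 3.30 and 12.8 FPKM in controls and 5.34, 4.64 and 11.4 FPKM in the KO, a spread too wide for a call.

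**Figure D2:**
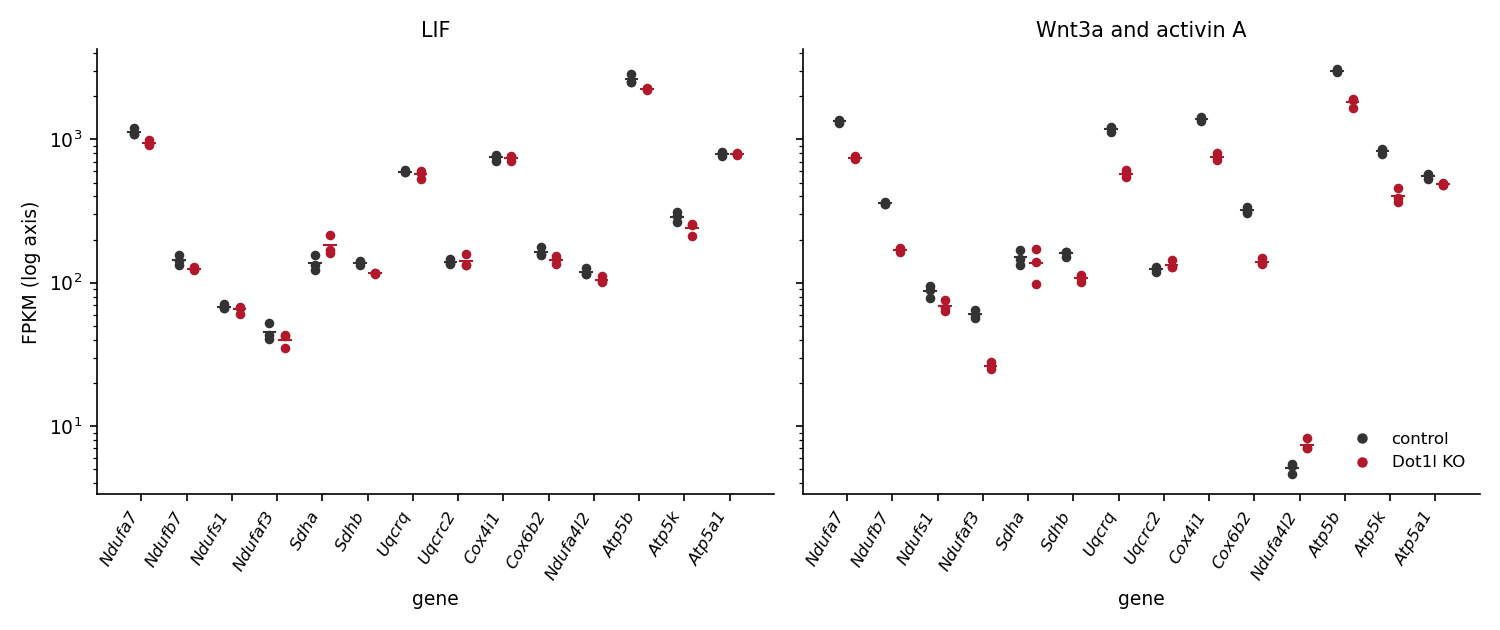
FPKM of 14 members in every library (log axis), with controls in black and Dot1l KO in red, in LIF (left) and with Wnt/activin (right). Points are libraries and bars are means over 3 libraries. With Wnt/activin the KO points of Ndufb7, Uqcrq, Cox4i1 and Atp5k lie below all control points, those of Sdha and Uqcrc2 overlap the controls, and those of Ndufa4l2 lie above.

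Assembly factors are not part of the finished complexes but build them. Of the 13 genes in this class, which also holds the coupling factor Atp5s, 11 fell (median -0.63). Ndufaf3, which acts early in complex I assembly, was at 57.2, 59.3 and 65.0 FPKM in controls and 28.1, 26.2 and 25.0 FPKM in the KO (-1.17, SE 0.07, limma adjusted p = 0.000118). Ndufaf8, another complex I assembly factor, fell from 94.4 to 43.7 FPKM (-1.09). Ndufaf4 and Sdhaf3 were not called. Of 36 assembly factors outside the symbol prefixes 17 fell and 2 rose (median -0.37), among them Cox17, a copper chaperone for complex IV, at -1.06, and Pet100 at -1.06.

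Of the 4 tested paralogues of complex IV subunits 2 fell and 1 rose. Cox6b2, known as the testis form of Cox6b, was at 335, 309 and 317 FPKM in controls and 136, 137 and 148 FPKM in the KO. Its log2 fold change was the lowest of the 91 tested members on this scale (-1.18, SE 0.05, limma adjusted p = 6.39e-05), while by the ratio of mean FPKM Ndufaf3, at 43.7% of control, was as low as Cox6b2, at 43.9%. Ndufa4l2, a hypoxia-induced relative of Ndufa4, was the only member that rose, from 5.46, 4.62 and 5.29 FPKM to 6.99, 8.22 and 6.99 FPKM (0.46, SE 0.10, limma adjusted p = 0.0121). The authors' deposited comparison did not call Ndufa4l2 (log2 fold change 0.53, q = 0.761). Cox7a2l, which joins complexes into supercomplexes, fell by 0.73, and Cox7a1, the muscle form of Cox7a, was at 23.2 against 18.4 FPKM and was not called (adjusted p = 0.525). Across tables, Ndufa4l2 stood at 119 FPKM in the LIF controls and 199 FPKM in the ES cells. Cox4i2, the form known from lung and low oxygen, stood at 4.70 FPKM in the LIF controls and 0.256 FPKM in the Wnt/activin controls. Cox6a2, Cox7b2, Cox8b and Cox8c did not exceed a mean of 1.62 FPKM in any group.

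The comparison in LIF asked the same of undifferentiated cells. The differences were small: of 93 members tested (Cox6a2, Cox7b2 and Cox8b were below the filter) 6 fell and 0 rose in limma at an adjusted p under 0.05, with 3.45% of all 13153 genes called lower and 0.958% higher. At an unadjusted limma p under 0.05, 45.2% of the members (42) and 18.2% of all genes were lower. The median was -0.17, beside -0.07 over all genes, and 83 of 93 members had a negative log2 fold change. Of 540 genes with a span under 10 kb and at least 100 FPKM, a class chosen after seeing the data, 12.8% were called lower (median -0.16). Of the 45 members in this class 4 were called lower (median -0.18). In 48 members every KO library was below every control and in 1 above, while 22.5% of all genes were separated downward and 8.66% upward. With Wnt/activin the separated members were 84 and 1 (34.8% and 25.3% of all genes).

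The 6 genes that fell in LIF were the complex I subunits Ndufa2 (-0.36), Ndufa6 (-0.34), Ndufb2 (-0.27) and Ndufv2 (-0.23), with Cox6b1 (-0.27) and Sdhb (-0.25). Their limma adjusted p-values lay between 0.0302 and 0.0495, and all 6 were also called lower with Wnt/activin. Ndufa6, an accessory subunit, was at 285, 262 and 284 FPKM in controls and 222, 227 and 206 FPKM in the KO, without overlap. Cox6b1 was at 897, 948 and 930.2 FPKM in controls and 794, 752 and 748 FPKM in the KO, also without overlap. All 36 complex I subunits had negative values (median -0.22), while complex III was nearest to 0 (median -0.05, and 0.03 after quantile normalization). Sdha was the member that stood above its controls, at 169.8, 215 and 161 FPKM against 157, 123 and 134 FPKM, but did not pass the test (0.39, adjusted p = 0.153).

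The calls in LIF rested on all 6 libraries: without any 1 of them 0 members were called and 1 to 40 genes in all, and 0 members were called after each rescaling. The authors' deposited table called 7 of 94 members lower and 0 higher in LIF (3.51% of all genes lower and 3.2% higher): Ndufaf8, Cox7a1, Ndufa1, Ndufa6, Ndufb3, Ndufs7 and Atp5e. Only Ndufa6 was in both sets of calls.

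The difference between the conditions was tested as an interaction over the 12 libraries. The effect was lower with Wnt/activin for 68 of 91 members and higher for 1, with a median of -0.54 beside -0.02 over 11783 genes, of which 20.7% were called lower and 17.6% higher. All 11 complex IV subunits and 32 of 36 complex I subunits were among the 68, as were 12 of 15 complex V and 5 of 8 complex III subunits, 5 of 13 assembly factors and 1 of 4 complex II subunits. After quantile normalization 31 were lower and 5 higher (15.1% and 16.8% of all genes), and after taking out the span and level trend 25 and 5 (13.7% and 15% of all genes). Cox4i1 was among the clearest: its LIF libraries overlapped, at 758, 709 and 782 against 756, 765 and 707 FPKM, and the difference was -0.86 (SE 0.07, limma adjusted p = 2.41e-05). Uqcrq likewise was at 611, 588 and 588 against 598, 532 and 585 FPKM in LIF, and differed by -0.97 (SE 0.08, limma adjusted p = 1.58e-05).

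**Figure D3:**
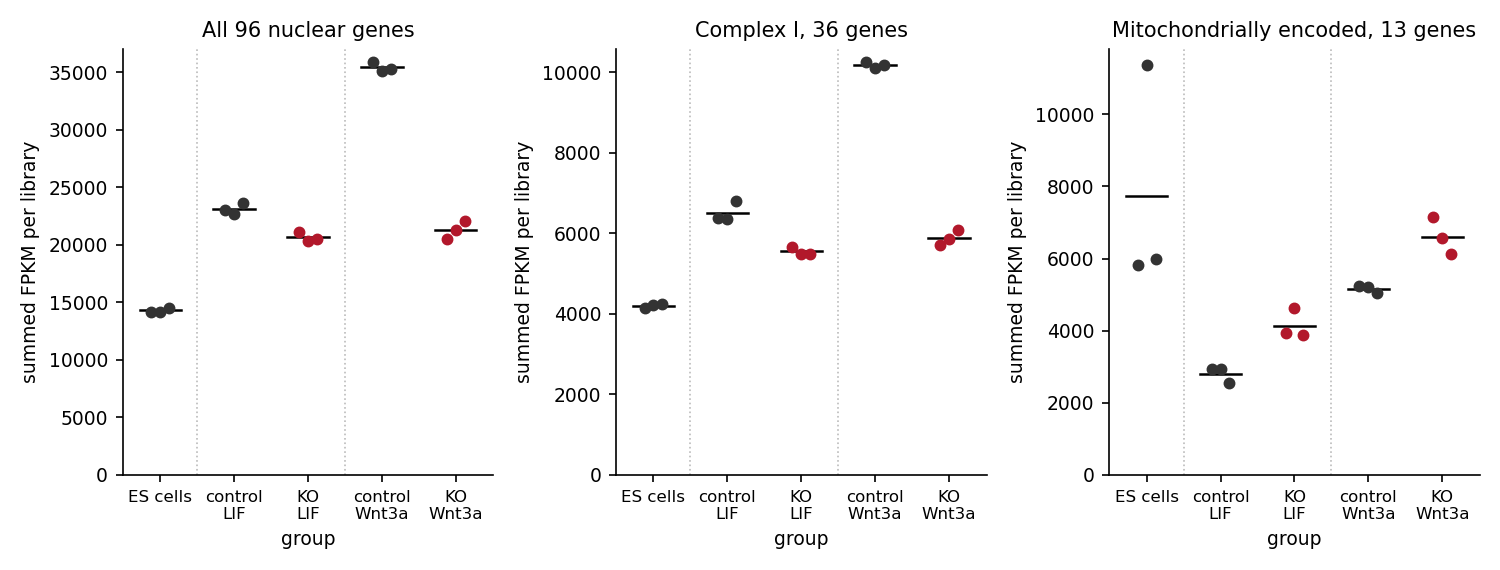
Summed FPKM per library (vertical axis) by group (horizontal axis) for the 96 nuclear genes, the 36 complex I subunits and the 13 mitochondrially encoded genes, of which 6 are listed at 0 in the KO tables. Points are libraries, bars are means and dotted lines separate tables that were scaled on their own. The KO sums of the nuclear genes are 20306 to 21133 FPKM in LIF and 20542 to 22076 FPKM with Wnt/activin, below their controls, whereas KO sums of mitochondrially encoded genes are above theirs.

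In both conditions the sum over the 96 genes was lower in every KO library than in every control. With Wnt/activin it was 20542 to 22076 FPKM in the KO and 35124 to 35919 FPKM in the controls. As a share of all FPKM the difference was smaller, at 2.63% to 2.91% in the KO against 3.07% to 3.26% in the controls. Total FPKM was itself lower in these KO libraries, at 759255 to 792381 against 1087970 to 1144370. Transcripts encoded in mitochondrial DNA went the other way. They summed to 6132 to 7142 FPKM in the KO and 5037 to 5250 FPKM in the controls, and in LIF to 3868 to 4619 against 2547 to 2947 FPKM. Of 7 measured genes of this list 3 rose and 0 fell with Wnt/activin (median 0.25), and 5 rose in LIF (median 0.56). With quantile normalization 7 and 3 rose. The complex IV gene mt-Co1 was at 930.1, 967 and 932 FPKM in controls and 1497, 1452 and 1355 FPKM in the KO (0.60, limma adjusted p = 0.000216), and mt-Nd5 of complex I rose from 107 to 368 FPKM (1.76). The other 6 mitochondrially encoded genes were listed at 0 in every library of both tables.

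The fall was not limited to the respiratory chain. With Wnt/activin all 76 cytoplasmic ribosomal protein genes fell (median -0.92), led by Rpl36 at -1.25, as did 72 of 78 mitochondrial ribosomal protein genes (median -0.62), led by Mrps16 at -1.06. After quantile normalization 49 of the first list fell and 3 rose, and 44 of the second fell and 2 rose. In LIF 15 cytoplasmic and 0 mitochondrial ribosomal protein genes fell, with 3.45% of all genes lower. The cytoplasmic count in LIF depended on the scaling: 4 fell and 1 rose after quantile normalization (1.08% of all genes lower). After median-of-ratios rescaling 4 fell (1.49% of all genes), and with the span and level trend removed 0 fell (1.1%). Cyc1, Usmg5 and Atpif1, which belong to the chain or the ATP synthase outside the prefixes, all fell with Wnt/activin, at -0.38, -0.65 and -0.90. After quantile normalization and after taking out the span and level trend, Cyc1 was positive (0.09 and 0.34).

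Enzymes of the citric acid cycle, which feeds the chain, had a median of -0.04 with Wnt/activin, with 5 of 13 lower, among them Suclg1 (-0.65), and 1 higher, Dld (0.43). This list changed direction with the scaling: after quantile normalization 7 rose and 0 fell. Of 17 genes for electron carriers and coenzyme Q synthesis 8 fell (median -0.30), among them Etfb (-0.93) and Coq7 (-0.83). Cycs, cytochrome c itself, rose in LIF from 46.4 to 57.3 FPKM (0.30, limma adjusted p = 0.0437) and fell with Wnt/activin by 0.25, a fall that became 0.11 after quantile normalization and 0.30 after taking out the span and level trend, both positive. Of 15 tested regulators of respiratory genes 5 fell and 4 rose with Wnt/activin, and in LIF 0 were called (limma adjusted p under 0.05). Polrmt, the mitochondrial RNA polymerase, fell from 53.5 to 27.8 FPKM, and Gabpa, the ETS factor of the CCGGAAG site, rose from 25.1 to 47.2 FPKM (0.88, limma adjusted p = 0.0053). Yy1 rose by 0.32, and Nrf1 was at 45.9 against 43.5 FPKM and was not called (adjusted p = 0.619).

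The members' effects were set beside their promoter motifs. With Wnt/activin the median log2 fold change was -0.68 in 12 tested members with the NRF1 core and -0.74 in 66 without it. It was -0.68 in 21 with the ETS site and -0.73 in 57 without it, and -0.76 in 13 with the YY1 core and -0.72 in 65 without it. For these 3 motifs the interquartile ranges with and without the motif overlapped, for the ETS site from -0.90 to -0.48 and from -0.86 to -0.53. The estrogen-related receptor site was in only 2 tested members, whose median was -0.36, against -0.73 in 76 without it.

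Gene span and level moved with the effect with Wnt/activin. The members are short, with a median RefSeq span of 7.51 kb against 21.3 kb over all genes tested. Genes under 5 kb had a median log2 fold change of -0.48 over all genes and -0.88 over 27 members, and genes over 20 kb had 0.13 over all genes and -0.47 over 15 members. Between these, the medians were -0.34 and -0.75 from 5 to 10 kb, and -0.17 and -0.70 from 10 to 20 kb. Of 626 genes under 10 kb with at least 100 FPKM, a class chosen after seeing the data, 88.7% were lower with a median of -0.72. The 48 members in this class were all lower, with a median of -0.81.

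**Figure D4:**
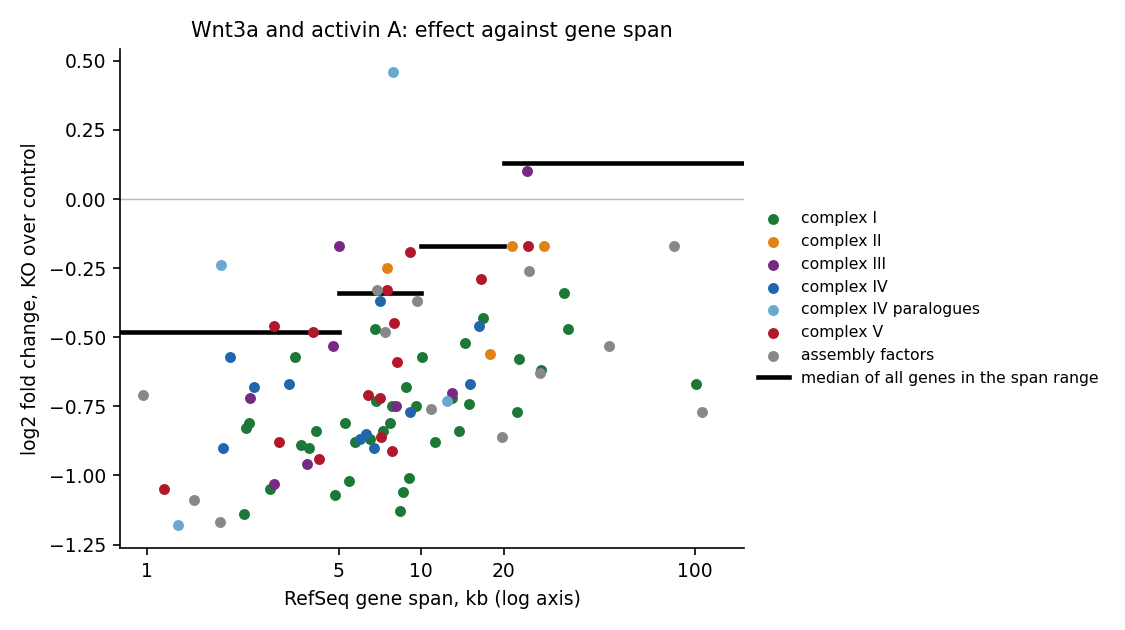
Log2 fold change with Wnt/activin (vertical axis) of the 91 tested members against RefSeq gene span in kb (log axis), coloured by complex, with the median of all genes in each of 4 span ranges as black lines. The lines rise from -0.48 under 5 kb to 0.13 over 20 kb, and most members lie below the line of their range.

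When the span and level trend was taken out, 27 of 36 complex I subunits remained lower and 0 were higher (median -0.32), and 7 of 13 assembly factors were lower (median -0.49). In complex V 4 were lower and 4 higher (Atp5a1, Atp5c1, Atp5g1 and Atp5g3), in complex III 2 and 2 (Uqcrc2 and Uqcrfs1 higher), in complex IV 3 and 1 (Ndufa4 higher) and in complex II 1 and 1 (Sdhd higher). Of the 83 calls, 47 kept their direction and side of the threshold, 15 changed sign and 7 of these were called in the opposite direction. After quantile normalization 55 of the 83 were kept and 12 changed sign. For part of the members of complexes II, III, IV and V the direction of the call thus depends on the scaling. The medians of complexes III, IV and V stayed negative under all 4 scalings, at -0.05, -0.10 and -0.08 with the trend removed. The median of complex II was positive after quantile normalization (0.23) and with the trend removed (0.14). No complex I subunit was called higher under any of the 4 scalings.

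**Figure D5:**
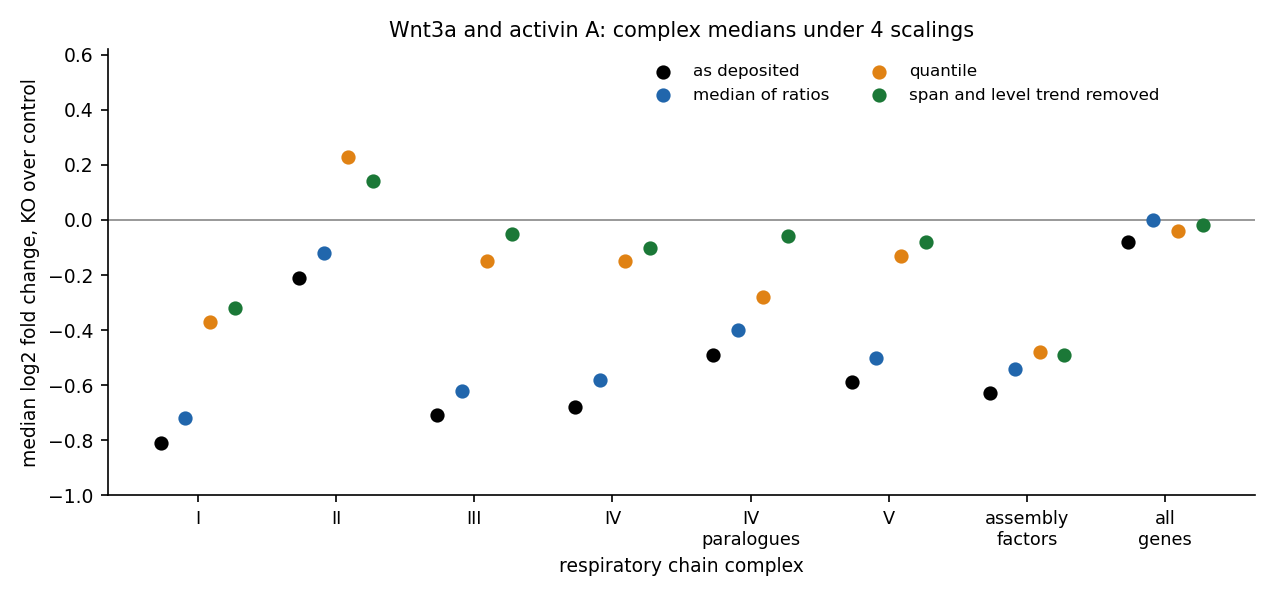
Median log2 fold change of each class (vertical axis) with Wnt/activin with FPKM as deposited, after median-of-ratios rescaling, after quantile normalization and after taking out the span and level trend. Complex I has the lowest median of the 5 complexes under each, from -0.81 as deposited to -0.32 with the trend removed, and complex II turns from -0.21 to 0.23 with quantile normalization.

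Markers of cell state moved with the same groups. With Wnt/activin, ES cell markers summed to 1247 to 1356 FPKM in the KO and 2213 to 2354 FPKM in controls (6 of 8 lower, 1 higher), and primitive streak markers to 1296 to 1356 against 957 to 1055 FPKM (6 of 8 higher, 1 lower). The 12 fibroblast and feeder markers summed to 391 to 412 against 596 to 634 FPKM (4 of 8 tested higher, 2 lower). In LIF the ES cell markers summed to 4588 to 4856 against 5489.5 to 5629 FPKM (6 of 8 lower, with 3.45% of all genes lower). In LIF 3 of these 8 were lower after quantile normalization, 3 after median-of-ratios rescaling and 2 with the span and level trend removed. The fibroblast markers there summed to 195 to 263 FPKM in the KO and 188 to 232 FPKM in controls, with Lum at 0 in both groups. Of 7 of them tested there, 2 rose (Acta2 and Timp3, at 0.85 and 0.61) and 0 fell, with 6 of 7 positive and a median of 0.54. The part of these markers, and of total FPKM, in the respiratory chain results was not tested. At the loci of 40 members the tables list more than 1 gene, and where genes overlap their values can share reads.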

How the data were processed

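The members and gene lists were chosen with earlier results of these data known. The deposited tables hold FPKM values by gene, 1 column a library, with the p-values, q-values and log2 fold changes from the authors' own comparison. The tools included Cuffdiff, Cufflinks 2.2.1 and STAR 2.5.4a, per the submitters' processing notes, with GRCm38 and mm9 among the builds and no role given. The annotation release is not given in these sources. The ChIP peak lists were not used here, because their build was not settled.

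The KO tables were fitted separately on log2(FPKM + 1), using limma 3.58.1 under R 4.3.3 with its trend option. Genes whose 6 libraries averaged 1 FPKM or more entered the fit. The two-sided p-values were adjusted over all genes (Benjamini-Hochberg, threshold 0.05), and the script was tested on simulated data. Fold changes on this scale understate changes of low genes. FPKM is relative to all transcripts, so a change in abundant ones shifts the others. Alternatives were another pseudocount, other filters, 3 rescalings, no trend, a replicate block and leaving out each library.

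Named genes were Dot1l, core members, paralogue sets, the 10 largest rises and falls per comparison, 5 per direction of the interaction, the highest member per complex, and up to 4 called genes per list, of which part are given. Neighbours in level and contrasting members of a complex were added after their values were seen.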

Additional observations from a re-analysis of the deposited data

Results flagged for a closer look

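The KO effect differed between LIF and Wnt3a with activin A by the interaction test for 69 of 91 members. It was lower with Wnt/activin for 68 and higher for 1. Of all 11783 genes tested, 20.7% were called lower and 17.6% higher. Of the 69 calls, 32 were kept after quantile normalization and 25 with the span and level trend removed. The largest differences among the members called were -1.01 for Cox6b2, -0.99 for Ndufaf3, -0.97 for Uqcrq, -0.87 for Ndufa13 and -0.86 for Cox4i1. The member in the other direction was Ndufa4l2, with a difference of 0.64 on the log2 scale, between 119 against 105 FPKM in LIF and 5.12 against 7.40 FPKM with Wnt/activin (controls first). In the second condition the log2 fold change varied with gene span, and total FPKM was lower in the KO. The part of span and total FPKM in these differences was not tested.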

How the results depend on the processing

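With Wnt/activin the members' median stayed negative under every alternative run. In LIF the members' count of 6 lower became 0 with no filter on low values, quantile normalization, median-of-ratios rescaling, the trend in span and level removed, limma without a trend and the replicate block, and the count over all genes became 259, 269, 360, 276, 236 and 0 in that order, from 580. Under the block, 2733 genes and 36 members (lower) had an unadjusted limma p under 0.05. The LIF median was -0.07, -0.09 and -0.07 after quantile normalization, median-of-ratios rescaling and trend removal. With Wnt/activin 54 members were lower and 9 higher (median -0.30) after quantile normalization, 76 lower and 2 higher (median -0.63) after median-of-ratios rescaling, and 46 lower and 9 higher (median -0.22) with the trend removed. The interaction had 31 lower and 5 higher (median -0.22) after quantile normalization, and 25 and 5 (median -0.15) with the trend removed. The cause was not tested.

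Without 1 library at a time, LIF gave 0 members lower, medians of -0.19 to -0.14 and 1 to 40 genes. The Wnt/activin comparison gave 75 to 80 members lower, medians of -0.74 to -0.69 and 5307 to 5595 genes, and the interaction 65 to 70, -0.58 to -0.50 and 3982 to 4236. With the replicate number as a block, 79 members were lower with Wnt/activin and 67 in the interaction. Same-numbered libraries did not deviate together (correlations of -0.0119 to 0.0621), so the numbers were not taken as pairs.

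With Wnt/activin, 12 called members turned positive after quantile normalization, among them Atp5a1 (0.34), Atp5c1 (0.34), Uqcrfs1 (0.22), Sdhd (0.20), Ndufa4 (0.16), Atp5f1 (0.16), Atp5g3 (0.11), Atp5b (0.04), Cox7a2 (0.03), Atp5j (0.01) and Ndufa10 (0.01). So did Sdhc (0.31), which had not been called, and, outside the members, Cyc1 (0.09) and Cycs (0.11). With the trend removed, 15 did: Atp5a1 (0.38), Uqcrfs1 (0.37), Sdhd (0.26), Ndufa4 (0.24), Atp5g3 (0.22), Atp5c1 (0.19), Atp5g1 (0.18), Atp5j (0.13), Cox7c (0.13), Cox8a (0.11), Ndufc1 (0.10), Atp5f1 (0.09), Uqcrb (0.05), Cox6a1 (0.04) and Uqcr10 (0.04), with Cyc1 (0.34) and Cycs (0.30) outside the members. Depth is unknown: steps between low values gave no clear unit.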
